A study of Glycine max with 34 samples.

Results

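BZIP16 is a soybean gene whose symbol places it in the basic leucine zipper (bZIP) family of transcription factors. It was taken by its symbol from the platform's probe-to-gene table, with all its probe sets that are tied to a single gene, and it was followed over all 17 groups of samples. It is 1 gene of 6029 with such a probe set, and it has 1 probe set, under gene identifier 778193. No probe set shared with another gene carries the symbol, and RefSeq lists the gene as protein coding. The gene was chosen by its measured signals, which were high in both vascular bundles against the parenchyma around them and in the seed coat parenchyma against the hilum and palisade. Its own values in these 3 contrasts are therefore given as a description, without a test.

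The bZIP proteins bind DNA through a basic region, and a leucine zipper next to it pairs it with another protein, so that members act as homodimers or heterodimers. In plants the family is known for its part in abscisic acid responses, seed maturation, light signalling and defence. Vascular bundles carry sugars and amino acids through xylem and phloem, and the seed coat parenchyma of a legume is the maternal tissue through which these reach the embryo. What BZIP16 itself does in soybean is not stated by the labels or the gene tables.

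The samples were early maturation seeds of the soybean (Glycine max) cultivar Asgrow A3237, 6.0 to 7.0 mm long, and the plants had 16 h light and 8 h dark at 22 °C. Laser microdissection of paraffin sections gave 16 compartments, and ground whole seeds, extracted with another RNA reagent, made the remaining group. The embryonic axis gave the shoot and root meristems, plumule, epidermis, vascular bundle and parenchyma, the cotyledon gave vascular bundle and the abaxial and adaxial epidermis and parenchyma, and the seed coat gave palisade, hourglass, parenchyma, hilum and aleurone. Each group had 2 biological replicates on 1 Affymetrix Soybean Genome Array each, 34 arrays in all, and no group carried a mutation or a treatment. The number of seeds behind a replicate is not in the labels, nor whether compartments share seeds, so the p-values measure the spread between these samples. For each probe set that spread is 1 estimate shared by all 17 groups. Values are array signals in arbitrary units on a linear scale, scaled by the authors to a common mean. They cannot tell fewer expressing cells in a compartment from less RNA per cell, and only 2 arrays per group limit their precision. Signals of probe sets for other organisms on the same array gave its background, their 95th percentile, which ran from 104.3 to 263.9. Pearson's r between the replicates of a group, across probe sets, which are not independent, ran from 0.876 to 0.957. On 6 arrays the hybridization controls were more than 2 times as bright as on the median array. These were both arrays of the axis epidermis, both of the plumule, axis vascular bundle replicate 1 and aleurone replicate 1.

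BZIP16 was bright in the seed coat parenchyma, in both vascular bundles and in the root meristem, and was at background over most of the seed. Its signal in the seed coat parenchyma was 15040.7 in replicate 1 and 13535.9 in replicate 2, a mean of 14288 ± 1064 (SD, n = 2). In the axis vascular bundle the signals were 5754 and 8536.6, a mean of 7145 ± 1968. The arrays of the cotyledon vascular bundle read 5318.6 and 7163.6, a mean of 6241 ± 1305. The seed coat parenchyma lay above both vascular bundles on both arrays, and the vascular bundles of axis and cotyledon overlapped each other. The root meristem followed with signals of 3421.2 and 2986.7, a mean of 3204 ± 307. It lay below both vascular bundles and above every group that follows, without overlap. On the scale of geometric means, the seed coat parenchyma was 2.03 times the axis vascular bundle, 2.31 times the cotyledon vascular bundle and 4.45 times the root meristem.

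The whole seed gave BZIP16 signals of 1823.5 and 1036.9, between the bright compartments and the dim ones. Its geometric mean was lower than that of the seed coat parenchyma by 10.3 times and lower than that of the root meristem by 2.31 times. The hourglass cells, the layer under the palisade of the seed coat, read 825.1 and 365.7. The plumule, the shoot tip with its leaf primordia, read 516 and 569.1. The hourglass layer and the plumule overlapped, and both lay below the whole seed. With these, 7 groups had both arrays above background, and the SD of their log2 values ran from 0.0971 to 0.806.

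In the remaining 10 groups BZIP16 was at or near background. The axis epidermis read 127.5 and 104.4, both below the backgrounds of those arrays, 236.1 and 233.7. In the aleurone, the endosperm-derived cell layer inside the seed coat, the signal was 37.9 in replicate 1 and 177.3 in replicate 2, and only the latter passed its array's background. The axis parenchyma read 31.4 and 169.5. Neither array of the axis parenchyma passed its background. Signals were 100.6 and 13 in the cotyledon abaxial epidermis, and 20.2 and 3.2 in the adaxial epidermis. The abaxial parenchyma of the cotyledon gave 13.3 and 72.5, and the adaxial parenchyma 11.7 and 17.7. No cotyledon compartment other than the vascular bundle had an array above background. The palisade read 14.8 and 75.9 and the hilum 48.6 and 18.9. The shoot meristem read 63.5 and 5.1. Of the 34 arrays, 15 were above background for BZIP16, and 9 groups had none, with signals from 3.2 to 169.5. In those 9 groups the SD of the log2 values reached 1.42, and neighbours in the order from the axis epidermis downwards overlapped, so no order is read among them.

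**Figure D1:**
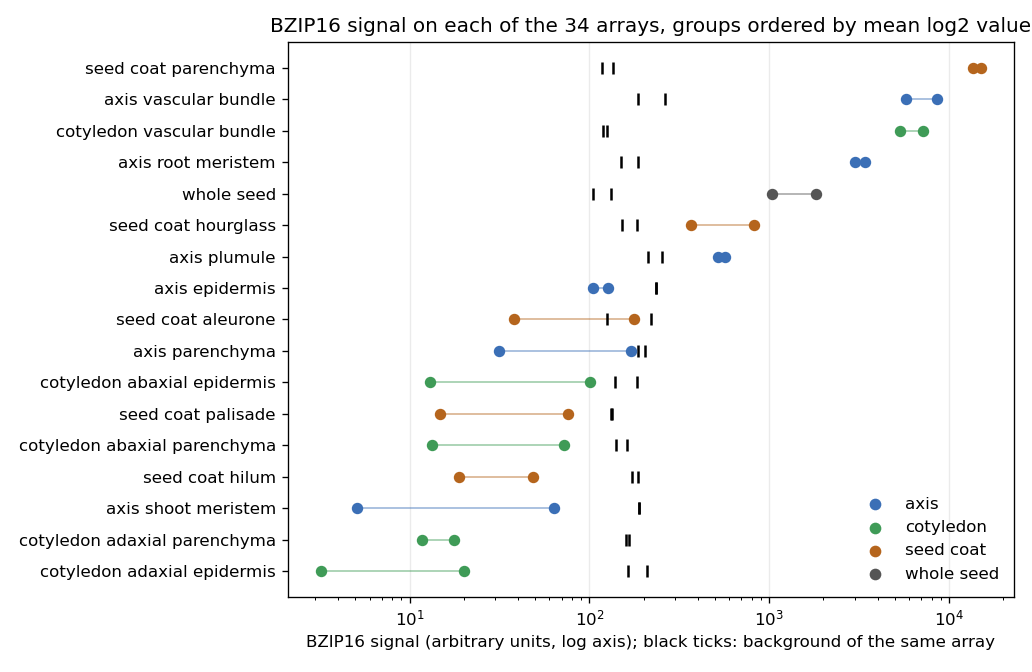
Signal of BZIP16 on each array (arbitrary units, log axis), with the 17 groups ordered by mean log2 value, points coloured by organ and a black tick for the background of each array. The points of the seed coat parenchyma (13535.9 and 15040.7), both vascular bundles and the root meristem stand far right of their ticks, while 9 groups have both points left of theirs.

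Against the parenchyma of its own organ, BZIP16 was higher in both vascular bundles on every array. Differences are on the scale of log2(signal + 16), which understates the change of dim genes. A fold against a group at background is a lower bound and is written as at least. Each SE rests on the spread shared by all 17 groups. For BZIP16 this includes the groups at background, where the SD of the log2 values reached 1.42, so it is not the spread of the groups compared. The axis vascular bundle exceeded the axis parenchyma by 6.23 ± 0.76 (SE), at least 33.3-fold. For comparison, 3.57% of the 28441 probe sets tested were called higher in that contrast by the limma fit, and 21 of them had a larger difference. Leaving out axis parenchyma replicate 1 made the difference 5.24, and leaving out replicate 2 made it 7.21. The cotyledon vascular bundle exceeded the mean of the abaxial and adaxial cotyledon parenchyma by 7.29 ± 0.66, at least 35.8-fold. In that contrast 6.65% of probe sets were called higher and 25 had a larger difference.

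Within the seed coat, BZIP16 in the parenchyma exceeded the mean of hilum and palisade by 8.15 ± 0.66, at least 83.6-fold. There 8.47% of probe sets were called higher, and 9 had a larger difference. The groups did not overlap in any of the 3 contrasts. These contrasts were part of the choice of the gene and nothing is read from the size of its differences. The seed coat parenchyma was also above the hourglass layer on both arrays, 25.2 times on the scale of geometric means.

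Lists of phloem and storage genes were read in these compartments on the same arrays. Of 17 phloem genes in a list of sieve element occlusion (SEO), sucrose transporter and SWEET sugar exporter symbols, 15 were tested. In the axis vascular bundle 0 of the 15 were called by limma, 2 were higher and 1 was lower at an unadjusted p under 0.05, and the summed signal was 3573 and 4101 against 3361 and 3446 in the axis parenchyma. SEOA, from the family of proteins that plug injured sieve tubes, read 96.9 and 806.1 there and 12.8 and 43.8 in the axis parenchyma, and did not pass (adjusted p = 0.0811, limma). SEO-F3 went the other way, with means of 73.8 in the axis vascular bundle and 217.8 in the axis parenchyma. SEOC, SEOE, SEOF, SEOM and SEOS had higher means in the vascular bundle, all but SEOF below background in both groups. None of these SEO genes was called. No gene of the xylem list was on the gene table. No tested gene of the phloem list was thus called in the compartment labelled axis vascular bundle, in which BZIP16 was bright. The list is not particular to vascular tissue here. SUT1 had its highest mean in the cotyledon abaxial epidermis, SWEET24 in the aleurone and SWEET13 in the hourglass layer.

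In the cotyledon vascular bundle 2 phloem genes were called higher and 1 lower, where 6.65% of all probe sets were called higher and 4.03% lower. SEOF read 800.0 and 845.8 there, against 129.6 and 77.9 in the abaxial and 97.1 and 56.9 in the adaxial cotyledon parenchyma. Its difference was 3.02 ± 0.62 (adjusted p = 0.000971, limma). Of the other SEO genes tested, SEOA and SEOM had higher means there, and SEO-F3, SEOC, SEOE and SEOS had lower means. None of these was called. Besides SEOF, the genes of the list called were SUT1, a sucrose transporter, which rose, and SWEET13, a sugar exporter, which fell. In the seed coat parenchyma 8 of the 15 were called higher and 1 lower, against 8.47% and 6.99% of all probe sets, and the summed signal of the list was 96910 and 83705, against 2641 to 6330 on the arrays of hilum and palisade. The sum was also high where BZIP16 was dim, at 97216 and 50228 in the aleurone, 34962 and 44270 in the cotyledon abaxial epidermis and 25326 and 24976 in the axis epidermis, and it was 23780 and 36936 in the hourglass layer. A few sugar transporters made up much of the sum in several compartments. SWEET24 had a mean of 69414 in the aleurone, and SUT1 had 35616 in the cotyledon abaxial epidermis. In the seed coat parenchyma the mean was 39503 for SWEET24 and 30616 for SWEET17. SEOA read 4777.9 and 4563.5 and SEOF 8214.8 and 6886.5 in the seed coat parenchyma, the compartment in which BZIP16 was also brightest. SEO-F3, SEOC and SEOE were called higher there as well, while SEOM and SEOS were not called. SEOC exceeded the background on only 2 arrays, the fewest at which a probe set was tested. Its highest mean, 856.85, was in the seed coat parenchyma, so SEOC may have been tested only through the group in which it was called. In the root meristem, where BZIP16 was 3421.2 and 2986.7, SEOA was 18.6 and 100.4 and SEOF 52.7 and 18.7, all below background. The part that a share of phloem cells has in the BZIP16 signal was not tested.

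Some genes of seed storage proteins fell in the vascular bundles. Of 8 storage genes, 4 were called lower in the axis vascular bundle than in the axis parenchyma and 3 were called lower in the cotyledon vascular bundle than in the cotyledon parenchyma, with 0 called higher in either by limma and 0 higher at an unadjusted p under 0.05. Of all probe sets, 3.65% were called lower in the axis contrast and 4.03% in the cotyledon contrast. GM2S-1, a gene of the 2S albumins, had differences of 1.46 in the axis and 0.90 in the cotyledon, and neither passed (adjusted p = 0.450 and 0.629). P34, a storage vacuole protein, read 29.9 and 157.5 in the axis vascular bundle and 27284 and 25937 in the axis parenchyma. The summed storage signal was 71175 and 68915 in the cotyledon vascular bundle, where BZIP16 was bright, and 192973 to 294469 in the cotyledon parenchyma. It was 10117 and 6843 in the root meristem, 1270 and 441 in the seed coat parenchyma and 6531 and 10812 in the axis vascular bundle. The shoot meristem, with BZIP16 below background, had 60790 and 59303, but the hilum and palisade, also without BZIP16, had 1185 to 2351. Their part in the BZIP16 pattern was not tested.

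Other markers changed as well. F3H, an enzyme of flavonoid synthesis on the epidermis list, was called higher in the axis vascular bundle than in the axis parenchyma (17.7-fold, adjusted p = 0.00207) and lower in the seed coat parenchyma than in hilum and palisade (54.6-fold, adjusted p = 1.36e-06). UGT78K1, the other gene of that list, was below background in both groups of each of the 3 contrasts. MFT, the gene on the aleurone list, fell by 4.60 in the axis vascular bundle and by 2.49 in the cotyledon vascular bundle. Its highest mean was in the cotyledon abaxial parenchyma, at 21748, and the aleurone read 10194 and 14905. MFT thus did not mark the aleurone alone in these data. Ep, the seed coat peroxidase gene on the palisade and hourglass list, was 22405 and 26007 in the seed coat parenchyma and 38706 and 40376 in the hourglass layer. In the seed coat parenchyma, BZIP16 was thus bright beside an hourglass marker. Whether RNA of neighbouring layers contributed was not tested.

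**Figure D2:**
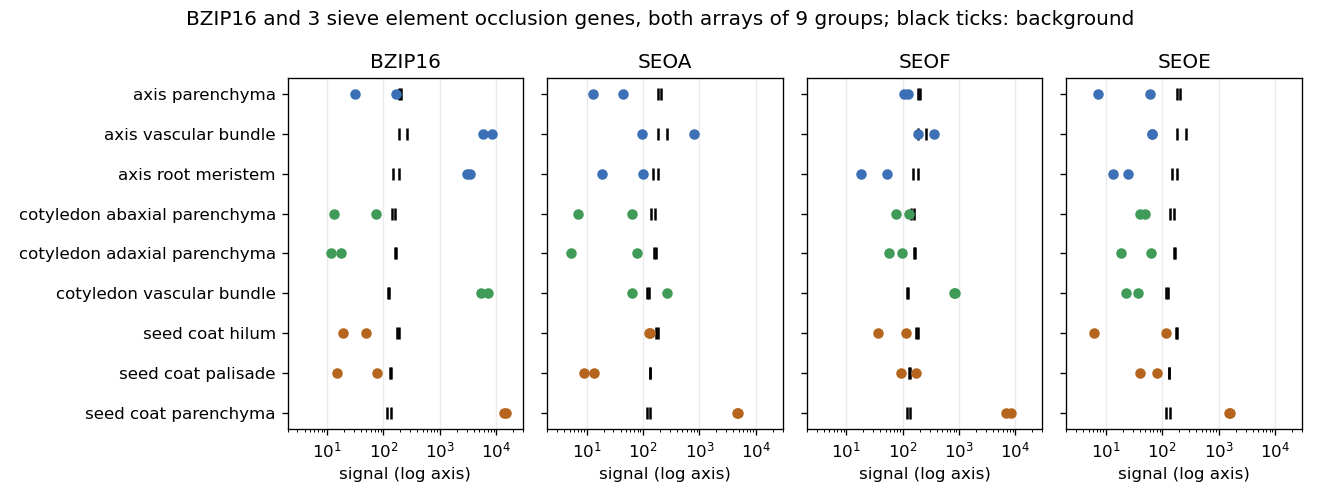
Signal (arbitrary units, log axis) of BZIP16 and of the sieve element occlusion genes SEOA, SEOF and SEOE on both arrays of 9 groups, with black ticks for the background of each array. All 4 genes are bright in the seed coat parenchyma, while in the axis vascular bundle and the root meristem BZIP16 is far above background and SEOE is below it. The other sieve element occlusion genes of the list are not drawn.

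Comparisons among the 8 compartments outside the 3 contrasts were tested with limma over all 28441 probe sets. The rule that chose BZIP16 does not name these compartments. The gene and the tests were still chosen with earlier results of these data known, so the p-values are not independent of that knowledge. A probe set was called when its adjusted p was under 0.05 with a difference of 1 or more on the log2 scale. Over all 8, which are the epidermis, plumule and meristem compartments of the embryo with the aleurone and the hourglass layer, BZIP16 differed (F = 18.8, adjusted p = 1.33e-07). Of all probe sets, 56.5% passed that test. The root and shoot meristems are the dividing tips of the axis, and they differed. BZIP16 was higher in the root meristem than in the shoot meristem by 6.29 ± 0.76, at least 15.7-fold (adjusted p = 1.91e-06), on 2 of 2 arrays. In this comparison 7.46% of all probe sets were called, and 4.38% of all were higher in the root meristem.

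The plumule also exceeded the shoot meristem, by 3.77 ± 0.76, at least 2.72-fold (adjusted p = 0.00263), where 5.20% of probe sets were called and 3.44% were higher. This call rested on 1 array, since without shoot meristem replicate 2, which read 5.1, the difference was 2.81 (adjusted p = 0.0825). Both plumule arrays belong to those with bright hybridization controls. Within the axis, then, BZIP16 was measured in the vascular bundle, the root meristem and the plumule, and below background in the epidermis, parenchyma and shoot meristem. The root meristem was 5.76 times the plumule on the scale of geometric means.

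Among the seed coat layers, BZIP16 was lower in the aleurone than in the hourglass layer (log2 difference -2.47 ± 0.76, a fold of at least 2.66, adjusted p = 0.0148). The background there was high, with 27.5% of probe sets called and 11.6% lower in the aleurone. The call was lost without aleurone replicate 1, an array with bright hybridization controls (-1.55, adjusted p = 0.234), and without hourglass replicate 1 (-1.90, adjusted p = 0.157). The aleurone and hourglass arrays did not overlap.

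The comparisons between the epidermal layers gave no call. Cotyledon and axis epidermis differed by -1.75 ± 0.66 (adjusted p = 0.0872), with 4.41% of probe sets called lower in the cotyledon and all BZIP16 arrays of both below background. Without cotyledon abaxial epidermis replicate 1 this difference was -2.25 (adjusted p = 0.0348). The abaxial and adaxial epidermis of the cotyledon differed by 1.14 ± 0.76 (adjusted p = 0.557, 3.52% called). Their signals overlapped and were all below background, and no fold can be given. Within pairs of compartments that the choice of the gene had required to be high or low together, the differences are given without a test. They were -0.18 ± 0.76 for the cotyledon minus the axis vascular bundle, 0.74 ± 0.76 for the abaxial minus the adaxial cotyledon parenchyma and -0.16 ± 0.76 for the hilum minus the palisade, and the arrays overlapped in each.

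The bZIP family on this array was read through the same 3 contrasts. The gene table holds 60 genes with a bZIP symbol or a symbol of a known bZIP subfamily, each read by its probe set of highest mean signal. Of the 59 other than BZIP16, 48 were tested, and 16 of these were called in at least 1 of the 3 contrasts while 32 were called in none. Of all probe sets, 24.6% were called in at least 1. By these probe sets BZIP50 was the only other list gene called higher in all 3, as were 194 of the 28441 probe sets (0.682%), and another 6 genes were called higher in 2 of the 3, as were 2.74% of all probe sets. The choice of probe set matters here, because both dimmer probe sets of BZIP62 were called higher in all 3 and the dimmer probe set of BZIP50 was not called in the seed coat (difference 1.72).

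In the axis vascular bundle 4 of the 48 bZIP genes rose, 2 fell and 42 were not called, which is 12.5% called against 7.22% of all probe sets (3.57% higher and 3.65% lower). The list's median difference was 0.17, against 0.05 over all probe sets. In the cotyledon vascular bundle 7 rose, 2 fell and 39 were not called, which is 18.75% against 10.7% (6.65% higher and 4.03% lower), with medians of 0.14 and -0.05. In the seed coat parenchyma 10 rose, 1 fell and 37 were not called, which is 22.9% against 15.5% (8.47% higher and 6.99% lower), with medians of 0.05 and -0.09. The axis count was the least stable of these, and dropped to 3 when either axis parenchyma array was left out. Under alternatives other than a left-out array it ran from 2 to 9. Of the 6 axis calls, 2 held with array weights and 2 with the arrays compared alone, in both cases those of BZIP46 and BZIP50.

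BZIP50, called higher in all 3 contrasts by its brighter probe set, had its own highest mean in the axis vascular bundle. Its signals were 4542.5 and 1381.2 in the axis vascular bundle, against 240.6 and 76.8 in the axis parenchyma. In the cotyledon vascular bundle it read 870.1 and 759.7, while the cotyledon parenchyma gave 11, 7.5, 4.8 and 36.8. The differences were 4.03 ± 0.76 in the axis (adjusted p = 0.000796) and 4.84 ± 0.66 in the cotyledon (adjusted p = 5.19e-06). BZIP50 differed from BZIP16 in the root meristem, where it read 87.9 and 10.4, below background. It read 868.1 and 1350.7 in the seed coat parenchyma, against 394.7 and 270.1 in the palisade and 25.6 and 118.1 in the hilum, a difference of 2.78 ± 0.66 (adjusted p = 0.00290). That call was lost without seed coat parenchyma replicate 2 (2.47, adjusted p = 0.0745). The probe sets that read BZIP50, BZIP71, BZIP105, BZIP53B, BZIP59 and BZIP38 have names that mark possible binding to near-identical copies of the gene. The same holds for AS2, SUT1, GY2, KTI3 and F3H.

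BZIP46 and BZIP48 rose in both vascular bundles and were not called in the seed coat. BZIP46 read 3981.8 and 2587.6 in the axis vascular bundle against 98.2 and 220.1 in the axis parenchyma, a difference of 4.30 ± 0.51, at least 14.8-fold (adjusted p = 1.74e-06). In the cotyledon vascular bundle it read 2334.3 and 1420.7, against 108.9 and 247.0 in the abaxial and 840.4 and 857.4 in the adaxial parenchyma, and was 4.64-fold higher (adjusted p = 0.000728). In the seed coat parenchyma, where BZIP16 was brightest, BZIP46 was at 72.2 and 102.4, below background. BZIP48 read 540.9 and 364.2 in the axis vascular bundle and 55.7 and 81.3 in the axis parenchyma (adjusted p = 0.0278). That call was lost without axis parenchyma replicate 1 (adjusted p = 0.164), without axis parenchyma replicate 2 (adjusted p = 0.0830) and without axis vascular bundle replicate 1 (adjusted p = 0.192). In the cotyledon its signals of 236.1 and 97.1 straddled the background, and its call (adjusted p = 0.00264) was lost without cotyledon vascular bundle replicate 1 (adjusted p = 0.118).

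BZIP110, BZIP62, BZIP71 and BZIP80 rose in the cotyledon vascular bundle and in the seed coat parenchyma but were not called in the axis vascular bundle. A test of the difference between the organs, added after these values had been seen, called BZIP110 and BZIP62 out of the 48, against 3.04% of all probe sets. BZIP110 read 3822.6 and 3062.0 in the cotyledon vascular bundle, against 48.7, 58.4, 215.9 and 93.8 in the cotyledon parenchyma, at least 18.7-fold higher (adjusted p = 6.48e-09). In the axis it read 4287.8 and 4185.0 in the vascular bundle and 4361.5 and 4364.8 in the parenchyma, and its difference was -0.04 ± 0.53 (adjusted p = 0.983). Where BZIP16 was below background in the axis parenchyma, BZIP110 was as bright as in the vascular bundle. BZIP110 read 3645.4 and 2954.6 in the seed coat parenchyma, against 138.2, 381.3, 72.2 and 130 on the hilum and palisade arrays, at least 16.3-fold higher (adjusted p = 5.43e-08).

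BZIP62 read 8420.7 and 9946.2 in the cotyledon vascular bundle and 182.8, 131.2, 45.3 and 114.4 in the cotyledon parenchyma, at least 51.6-fold higher (adjusted p = 1.98e-08). In the axis it read 643.7 and 1772.5 in the vascular bundle and 388.3 and 1184.4 in the parenchyma, and the groups overlapped (difference 0.64 ± 0.69, adjusted p = 0.692). Its other probe sets were called higher there, with differences of 2.65 and 1.98, so the probe sets of BZIP62 disagree on the axis. BZIP62 read 22223 and 21910 in the seed coat parenchyma, 6.49-fold above hilum and palisade (adjusted p = 0.00164). The hourglass layer gave 12097 and 11812.

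BZIP80 read 1138.2 and 1355.1 in the cotyledon vascular bundle (3.76-fold higher, adjusted p = 0.00224) and 3338.0 and 3142.4 in the seed coat parenchyma (5.21-fold higher, adjusted p = 0.000131). Its cotyledon call was lost without cotyledon vascular bundle replicate 2 (adjusted p = 0.0533). BZIP71 was at least 2.93-fold higher in the cotyledon vascular bundle (adjusted p = 0.00217) and 2.82-fold higher in the seed coat parenchyma (adjusted p = 0.0123). The cotyledon call of BZIP71 was lost without cotyledon vascular bundle replicate 1 (adjusted p = 0.0766). Its seed coat call was lost without palisade replicate 2 (adjusted p = 0.0573), without seed coat parenchyma replicate 1 (adjusted p = 0.108) and without seed coat parenchyma replicate 2 (adjusted p = 0.0825). Both genes had higher signals in the axis vascular bundle than in the axis parenchyma, but neither passed the test (BZIP80 adjusted p = 0.117, BZIP71 adjusted p = 0.113). The dimmer probe set of BZIP80 was not called in any of the 3 contrasts.

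A further set of bZIP genes rose in the seed coat parenchyma and in neither vascular bundle. BZIP83 read 1928.4 and 2302.1 there and at most 94.5 on the hilum and palisade arrays, at least 12.4-fold higher (adjusted p = 7.99e-08). Both of its vascular bundles were at or near background, with 35.5 and 25 in the axis and 66.2 and 131.5 in the cotyledon. BZIP124 read 21876 and 21015 in the seed coat parenchyma, 27.5-fold above hilum and palisade (adjusted p = 8.39e-08), and 1015.7 and 1249.6 in the axis vascular bundle against 2037.9 and 812.0 in the axis parenchyma. BZIP125 read 3592.8 and 4034.1 in the seed coat parenchyma, at least 9.21-fold higher (adjusted p = 1.35e-06). BZIP126 was 12.9-fold higher in the seed coat parenchyma (20531 and 21015, adjusted p = 6.58e-11). In the cotyledon vascular bundle it was 2.44-fold lower (3837.9 and 2469.7, adjusted p = 0.00112), a call lost without cotyledon vascular bundle replicate 2 (adjusted p = 0.0916). The hourglass layer, outside this contrast, gave 15711.7 and 14410.6 for BZIP126. It gave 4522.1 and 5937.3 for BZIP124 and 561.2 and 950.3 for BZIP125. BZIP111 also passed in the seed coat parenchyma (209.0 and 374.3, adjusted p = 0.0450), but its call was lost when any of the 6 arrays of that contrast was left out (adjusted p from 0.0505 to 0.383) and under both other scalings, and its dimmer probe set had a difference of -1.10 there and was not called.

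Calls in the opposite direction to BZIP16 were made for 2 of the 48 bZIP genes in the axis, 2 in the cotyledon and 1 in the seed coat. Of all probe sets, 3.65%, 4.03% and 6.99% were called lower in these contrasts. BZIP105 was lower in the axis vascular bundle (71.4 and 21.4 against 213.9 and 202.9 in the axis parenchyma, adjusted p = 0.0217) and in the cotyledon vascular bundle (48.0 and 112.0 against 173.4 to 424.5, adjusted p = 0.00924). BZIP53B was lower in the axis vascular bundle, where its arrays read 389.4 and 1688.4 and its difference was -1.42 (adjusted p = 0.0320). Without axis vascular bundle replicate 1, an array with bright hybridization controls, the difference was -0.38 (adjusted p = 0.731), and the call was also lost without either axis parenchyma array (adjusted p = 0.187 and 0.0887). BZIP132 was lower in the seed coat parenchyma, with 124.3 and 336.3 against 7188.6 and 6074.1 in the hilum and 71.6 and 4.6 in the palisade (adjusted p = 0.0385). The seed coat parenchyma lay between hilum and palisade for BZIP132, and without seed coat parenchyma replicate 1 the difference was -0.59 (adjusted p = 0.603). Its call was also lost without either hilum array (adjusted p = 0.0883 and 0.0561) and without palisade replicate 1 (adjusted p = 0.233). The axis call of BZIP105 was lost without either axis parenchyma array (adjusted p = 0.108 and 0.0959) and without axis vascular bundle replicate 2 (adjusted p = 0.202). Its cotyledon call was lost without cotyledon vascular bundle replicate 1 (adjusted p = 0.252). The other probe set of BZIP105 gave 0.14 in the axis and -0.41 in the cotyledon and was not called in either. BZIP113, the remaining gene called higher in the axis vascular bundle, read 905.1 and 1184.0 against 279.5 and 390.8 (3.03-fold, adjusted p = 0.00932), a call lost without axis parenchyma replicate 1 (adjusted p = 0.112) and without axis vascular bundle replicate 2 (adjusted p = 0.0667).

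**Figure D3:**
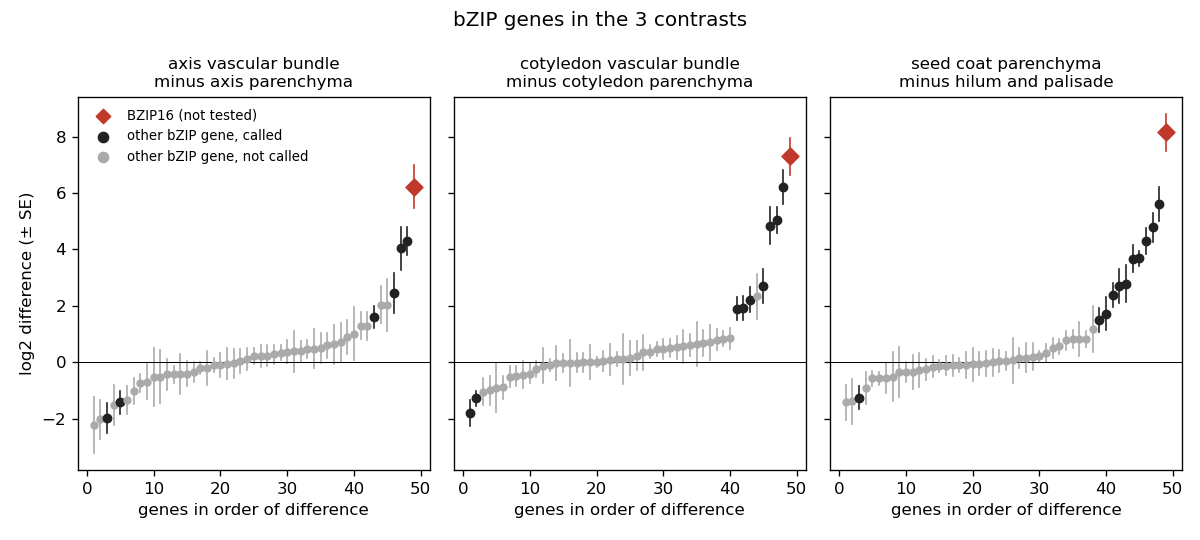
Log2 difference (± SE) of BZIP16 and the 48 other bZIP genes tested in each of the 3 contrasts, in order of the difference, with black points for genes called and grey points for those not called. BZIP16 stands at the upper end of each panel (6.23, 7.29 and 8.15), and most other genes lie near 0.

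Over the 16 compartments the bZIP genes peaked in different places. Of the 48, 8 had their highest mean in the hilum, 7 in the seed coat parenchyma, 6 each in the shoot meristem, the aleurone and the hourglass layer, and 3 in the axis vascular bundle. BZIP59, measured in every compartment, ran from 6370.4 in the root meristem to 28668 in the aleurone. BZIP38 was highest in the shoot meristem, at 15682 and 17740, where BZIP16 was below background. Pearson's r of the 48 with BZIP16 over the 16 compartment means had a median of 0.13 and ran from -0.42 to 0.75, and 3 genes were above 0.7. Over all tested probe sets the median r was -0.02. These are descriptions over means that share arrays and seeds.

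The 10 named genes whose level followed BZIP16 most closely were found by Pearson's r over the 16 compartment means, among 886 other genes with a symbol that says more than a locus number, each read by its brightest probe set. SABATH1, of a family of carboxyl methyltransferases, had r = 0.79. LOX7, a lipoxygenase, followed with 0.76, AS2 with 0.75, and AOC6, an allene oxide cyclase of jasmonate synthesis, with 0.74. CYP98A2, a hydroxylase of the phenylpropanoid pathway, also had 0.74, and MYB145, a MYB transcription factor, and FAD3C, a desaturase that makes linolenic acid, had 0.73 each. The bZIP genes BZIP80 and BZIP110 had 0.75 each and BZIP50 had 0.73. BZIP62 had 0.62 by its brightest probe set and 0.76 and 0.72 by its others. Among all probe sets, 66 others had r of at least 0.8 and 9 had at least 0.9, up to 0.95. Of the 66, 18 are tied to a single gene, and 0 of these has a symbol beyond a locus number.

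Several of these genes departed from BZIP16 in single compartments. SABATH1 read 1942.6 and 2095.8 in the seed coat parenchyma and 504.9 and 687.7 in the cotyledon vascular bundle, but 200.9 and 148.2 in the axis vascular bundle, below background. MYB145 was brightest in the cotyledon vascular bundle, at 3939.4 and 3804.2, with 744.8 and 990.0 in the seed coat parenchyma and 201.5 and 136.7 in the axis vascular bundle. LOX7 read 37087 and 30705 in the seed coat parenchyma, but in the axis it was higher in the parenchyma, at 6347.6 and 6194.6, than in the vascular bundle, at 968.1 and 1499.1. AS2 resembled BZIP16 in the 3 contrasts, with 2554.0 and 3318.3 in the seed coat parenchyma, 1051.9 and 723.2 in the cotyledon vascular bundle and 211.5 and 828.8 in the axis vascular bundle. In the root meristem AS2 was at 4.7 and 25.9, where BZIP16 was bright.

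AOC6, CYP98A2 and FAD3C were measured in the root meristem as well. AOC6 read 2346.1 and 2078.8 in the seed coat parenchyma, 1749.8 and 1454.7 in the cotyledon vascular bundle, 1298.5 and 710.2 in the axis vascular bundle and 368.1 and 585.2 in the root meristem. FAD3C read 7779.3 and 7759.3, 7489.2 and 6663.2, 2300.4 and 3182.3, and 2977.2 and 1995.1 in the same order. CYP98A2 read 8338.0 and 5804.1 in the axis vascular bundle, 7606.4 and 4886.6 in the cotyledon vascular bundle, 3788.9 and 5743.3 in the root meristem and 3235.3 and 3795.4 in the seed coat parenchyma. CYP98A2 and FAD3C were also bright in the aleurone, at 7243.0 and 4751.6 for CYP98A2 and 3171.4 and 2658.4 for FAD3C, where BZIP16 was at background. The choice of these genes depended on the measure of likeness. Spearman's rho kept 3 of the 10, and Pearson's r without both vascular bundles also kept 3.

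**Figure D4:**
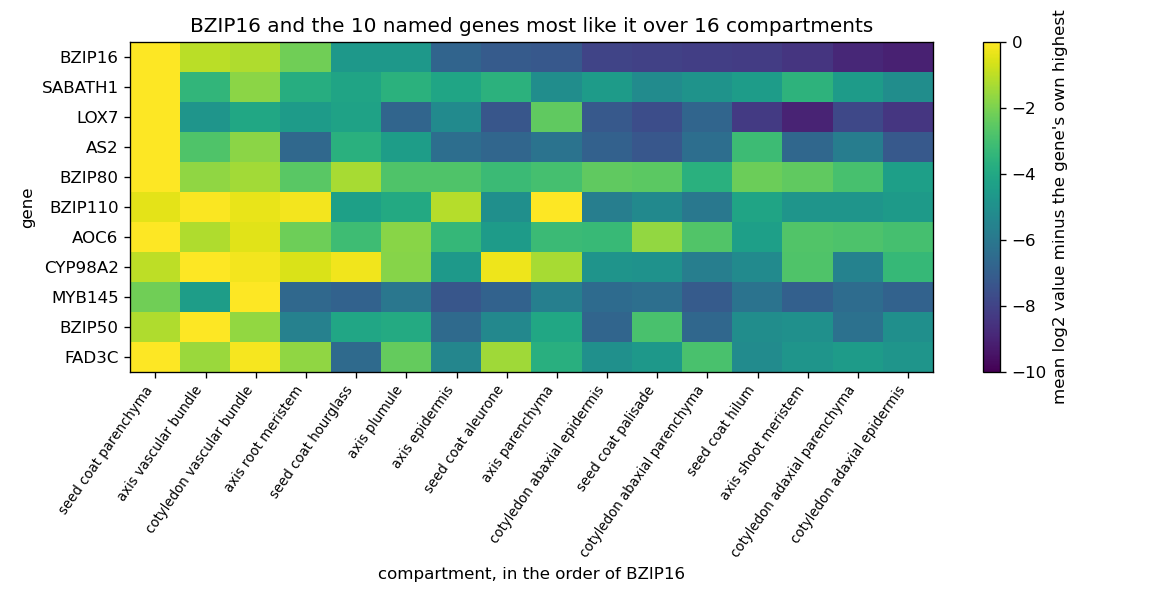
Mean log2 value of BZIP16 and of the 10 named genes most like it in each of the 16 compartments, minus the gene's own highest value (colour, log2 units), with compartments in the order of BZIP16. The left end is light for most of the genes, and the rows part in the axis vascular bundle, the root meristem and the axis parenchyma.

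Among all probe sets, 2018 of 28441 (7.10%) had their highest compartment mean in the seed coat parenchyma, as BZIP16 did. The same 3 highest compartments, seed coat parenchyma with both vascular bundles in any order, were found for 130 probe sets (0.457%). With the root meristem as the fourth, 38 probe sets (0.134%) had the same 4 highest compartments. All these counts include BZIP16 itself. High signals in the seed coat parenchyma and both vascular bundles were part of the choice of the gene. The shares are therefore descriptions, and nothing is read from their size.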

How the data were processed

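The authors deposited a linear intensity for each probe set of each array and used GCOS 1.3, per the submitters' processing notes. The algorithm within that software is not given in the sources used here. On each array the mean signal, with 2% trimmed at each end, was 500.05 to 500.07, so the arrays had been scaled. Compartment RNA, 2 ng per sample, was amplified before hybridization, per the labels, which can widen the spread of dim genes.

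Signals were used as deposited, as log2(signal + 16). A soybean probe set was tested if it exceeded the background, the 95th percentile of the Phytophthora and Heterodera probe sets of the array, on at least 2 arrays (28441 of 37593). The 17 groups, 34 arrays in all, were fitted together in limma 3.58.1 under R 4.3.3, with an intensity trend, and p-values were adjusted by Benjamini-Hochberg over all probe sets tested. A probe set was called at an adjusted p under 0.05 and a log2 difference of at least 1. Folds come from means of log2 values. If in the dimmer group no more arrays were above background than below, its signals under background were raised to it, and the fold is a lower bound. The fit was tested on simulated data. Figures were drawn with matplotlib 3.10.9 and pandas 2.3.3 under Python 3.11.15.

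The gene table, the platform's annotation, ties 8677 soybean probe sets to 1 gene, 370 to several and 28546 to none. Of the 8677, 8652 have a gene identifier in RefSeq's list for assembly Glycine_max_v4.0, used for names only. No sequence or genome position was used. Genes named are BZIP16, list genes called in any of the 3 contrasts, the 5 list genes with the highest group mean (BZIP59, BZIP62, BZIP124, BZIP126 and BZIP38), and the 10 named genes most like BZIP16. Markers are named where they are set beside a result. The phloem, storage, epidermis, aleurone, xylem, procambium, and palisade and hourglass marker lists were read the same way. The only procambium gene, PIN2A, an auxin efflux carrier, fell by 3.42 in the axis vascular bundle and was not called in the other contrasts. BZIP16, the lists and the tests were chosen with earlier results of these data known. Vascular bundle against vascular bundle, abaxial against adaxial parenchyma and hilum against palisade had been planned as tests, and are given without one because the choice of BZIP16 used those groups. Alternatives were the pseudocount, scaling, the filter, the variance model, array weights, hybridization controls, the replicate block and left-out arrays.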

Additional observations from a re-analysis of the deposited data

Results flagged for a closer look

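The contrast of vascular bundle with parenchyma differed between cotyledon and axis for 2 of the 48 other bZIP genes, by an interaction term in the same limma fit that was added after the values had been seen. For BZIP110 the contrast was larger in the cotyledon by 5.07 ± 0.70 on the log2 scale (adjusted p = 3.21e-05), and its other tested probe set gave 6.60 (adjusted p = 0.000758). For BZIP62 it was larger in the cotyledon by 5.57 ± 0.92 (adjusted p = 0.000382), and its other probe sets gave 3.27 (adjusted p = 0.00912) and 3.56 (adjusted p = 0.0120). Of all probe sets, 3.04% were called in this test. Over the alternatives and left-out arrays run, the adjusted p ranged from 3.78e-06 to 0.000868 for BZIP110 and from 1.97e-05 to 0.00820 for BZIP62. For BZIP16 the same difference was 1.07 ± 1.01, given without a test.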

How the results depend on the processing

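The precision is limited by 2 arrays per group, and dim signals carry little information, since 9 of the 17 groups lay below background for BZIP16. Of 195 values recomputed under alternatives other than a left-out array, over 17 results, 184 kept their direction and call, or stayed within 1.5 times for counts. Of 92 with an array left out, 78 did. In no case was the cause of a change tested. Tests of BZIP16 in the root against the shoot meristem and over 8 compartments kept their call throughout.

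With arrays left out in turn, the log2 differences of BZIP16, including the 3 given without a test in the text, ranged from 5.34 to 7.25 for root against shoot meristem, from 2.81 to 4.72 for plumule against shoot meristem, from -2.25 to -1.25 for cotyledon against axis epidermis, from 0.138 to 2.14 for abaxial against adaxial epidermis, from -3.39 to -1.55 for aleurone against hourglass, from -0.0604 to 1.53 for abaxial against adaxial parenchyma, from -0.47 to 0.10 for cotyledon against axis vascular bundle, and from -0.95 to 0.62 for hilum against palisade. The untested axis vascular bundle difference ranged from 5.24 to 7.21. The hybridization control covariate turned hilum against palisade to 0.0938 and brought cotyledon against axis epidermis past the threshold (-3.71, adjusted p = 0.0303). The aleurone call was lost with a pseudocount of 1 (-2.72, adjusted p = 0.0641), without arrays with bright controls (-1.55, adjusted p = 0.253) and with its arrays compared alone (-2.47, adjusted p = 0.0501). A pseudocount of 64 lowered the untested differences to 6.12 in the cotyledon and 7.15 in the seed coat.

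The 6 bZIP calls in the axis became 2 with array weights and 2 with the arrays compared alone. Over all alternatives other than a left-out array they ran from 2 to 9, and with an array left out from 3 to 7. The 2 calls of the difference between organs became 5 without axis vascular bundle replicate 2. Of the 10 genes most like BZIP16, 3 remained under Spearman's rho and 3 without both vascular bundles.

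Calls over all probe sets fell from 2053 to 790 (arrays alone) and 1294 (array weights) for axis vascular bundle against parenchyma, from 1480 to 964 (arrays alone) for plumule against shoot meristem, from 2854 to between 1168 and 1194 (weights, covariate, arrays alone) for the epidermis, and from 1002 to 572 (arrays alone) for abaxial against adaxial epidermis. With an array left out the lowest counts were 1214 of 2121 for the meristems, 801 for the plumule, 544 for both sides of the epidermis, 1239 and 1925 of 3035 for the vascular bundles against parenchyma in axis and cotyledon, 2917 of 4396 for the seed coat and 511 of 864 for the difference between organs. Scaling to the 75th percentile moved the median of all probe sets from 0.17 to 0.01 for aleurone against hourglass.

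Replicates of different groups share the numbers 1 and 2. Over 136 pairs of groups the differences between replicate 1 and 2 had a median correlation of 0.02 (-0.09 to 0.15, with 4 pairs above 0.1), so the numbers were not taken as pairs. Whether samples share seeds is not settled by this. With the replicate block no call of BZIP16 changed (6.29, adjusted p = 2.65e-06 for the meristems), and the cotyledon bZIP count went from 9 to 10. Plumule, epidermis and 8-compartment results were not run without bright-control arrays, since both arrays of 2 groups would go.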
